A study of Mus musculus with 8 samples.

Results

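The regions described here are the autosomal peaks of a single chromatin immunoprecipitation library made with an antibody against ATM in wild-type mouse embryonic fibroblasts. All intervals of the deposited ATM peak list on the 19 autosomes were taken, without a limit on score or width, which gave 112116 of its 119570 peaks. The other 7302 peaks on chromosome X and 152 on chromosome Y were left out. The whole series holds 397351 wild-type peaks in 3 lists, and the autosomal γ-H2AX list of 119267 peaks and the autosomal HMGA2 list of 142818 peaks serve as references.

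The study compared fibroblasts with and without Hmga2, a gene for a small chromatin protein that binds AT-rich DNA, and profiled HMGA2, ATM and the phosphorylated histone H2AXS139ph (γ-H2AX) by ChIP-seq. Of its 8 samples, the 3 used here are wild type for Hmga2, 1 library for each antibody. The cells came from C57BL/6 embryos at stage E15.5, were used between passages 2 and 4, and were grown in serum-containing medium without a stated damaging agent. The ATM antibody was from Santa Cruz. Input libraries and the libraries from Hmga2-deficient cells were not analysed here. Each antibody has 1 library, so no difference between the lists has a replicate check, and every interval below covers counting error only. Peak positions measure no expression, so the labelled cell type could not be checked against its markers.

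ATM is a serine/threonine kinase at the head of the response to DNA double-strand breaks. It is recruited and activated by the MRE11, RAD50 and NBN complex and phosphorylates H2AX, CHK2, p53 and many other proteins, and the H2AX mark spreads over long stretches of chromatin on both sides of a break. ATM is not known as a sequence-specific DNA-binding protein.

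The strongest peaks directly before a start site are shown at base level, as the entries that fall on an annotated promoter. Promoter sequences of RefSeq genes on GRCm38.p6 were held for 18 of the 19 autosomes, and 316 ATM peaks touched the 250 bases before the start of 328 protein-coding genes. The 6 with the highest score among peaks covering at least 100 of those bases are printed below, with scores of 37.6 to 51.1 that lie well above the list's median of 23.6. Each runs 5′ to 3′ on the gene's own strand and ends at the base before the start site, and capitals mark the bases inside the ATM peak.
Spef1, chr2:131174811-131175060, minus strand: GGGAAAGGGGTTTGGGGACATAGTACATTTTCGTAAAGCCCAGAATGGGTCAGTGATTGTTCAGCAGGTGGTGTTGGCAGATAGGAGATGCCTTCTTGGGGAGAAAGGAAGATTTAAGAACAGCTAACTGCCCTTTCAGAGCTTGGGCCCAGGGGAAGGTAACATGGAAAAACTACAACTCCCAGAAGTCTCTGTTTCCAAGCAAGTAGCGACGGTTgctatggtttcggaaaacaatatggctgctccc
Zfp993, chr4:146512599-146512848, plus strand: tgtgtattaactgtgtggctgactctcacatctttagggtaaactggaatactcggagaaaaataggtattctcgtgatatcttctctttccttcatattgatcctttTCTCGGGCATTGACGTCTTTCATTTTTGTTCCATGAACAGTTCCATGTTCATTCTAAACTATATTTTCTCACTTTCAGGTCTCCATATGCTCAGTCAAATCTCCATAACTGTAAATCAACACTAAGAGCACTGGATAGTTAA
Slc2a8, chr2:32982084-32982333, minus strand: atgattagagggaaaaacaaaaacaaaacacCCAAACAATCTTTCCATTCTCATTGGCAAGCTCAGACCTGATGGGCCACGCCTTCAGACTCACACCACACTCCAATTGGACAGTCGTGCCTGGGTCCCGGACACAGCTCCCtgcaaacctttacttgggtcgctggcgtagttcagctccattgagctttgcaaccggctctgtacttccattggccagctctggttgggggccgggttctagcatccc
Dgka, chr10:128745085-128745334, minus strand: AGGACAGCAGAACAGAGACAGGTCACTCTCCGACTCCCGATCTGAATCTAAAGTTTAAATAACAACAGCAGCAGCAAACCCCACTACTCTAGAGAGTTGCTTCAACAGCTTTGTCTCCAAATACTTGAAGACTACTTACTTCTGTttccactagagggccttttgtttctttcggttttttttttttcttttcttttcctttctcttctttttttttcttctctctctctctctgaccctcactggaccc
Ankrd27, chr7:35585997-35586246, plus strand: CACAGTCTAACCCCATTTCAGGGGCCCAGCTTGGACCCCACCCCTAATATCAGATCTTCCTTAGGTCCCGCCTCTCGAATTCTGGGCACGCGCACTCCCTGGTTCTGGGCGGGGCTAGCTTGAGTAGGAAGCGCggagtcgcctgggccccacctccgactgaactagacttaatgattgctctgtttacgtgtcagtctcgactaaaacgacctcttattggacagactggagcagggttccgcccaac
Atp6v0e, chr17:26676146-26676395, plus strand: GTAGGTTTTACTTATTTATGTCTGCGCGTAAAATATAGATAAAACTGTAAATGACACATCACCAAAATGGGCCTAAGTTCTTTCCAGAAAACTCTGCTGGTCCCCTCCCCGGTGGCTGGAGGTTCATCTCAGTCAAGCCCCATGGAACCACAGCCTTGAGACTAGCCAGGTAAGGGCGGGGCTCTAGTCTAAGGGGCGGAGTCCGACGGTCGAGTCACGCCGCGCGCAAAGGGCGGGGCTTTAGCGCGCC

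These 6 windows had little in common. Their GC content ran from 36.8% at Zfp993, a zinc finger gene, to 56.8% at Ankrd27, a regulator of endosomal traffic. CpG dinucleotides numbered 3 in the window of Dgka, which encodes a diacylglycerol kinase, and 15 in that of Atp6v0e, a subunit of the vacuolar proton pump. Searched on both strands, the CCAAT box occurred 4 times before Slc2a8, a glucose transporter gene, with 3 of the copies inside the peak. The GC box GGGCGG occurred 3 times before Atp6v0e, all inside the peak. Neither motif nor TATAAA was present before Spef1 (a sperm flagellar protein gene), Zfp993 or Dgka. The Atp6v0e peak overlapped a γ-H2AX peak and the Zfp993 peak an HMGA2 peak. The other 4 overlapped neither reference list.

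Over all 31365 promoter windows, which span the 250 bases before and 50 bases after a start site, 577 were touched by an ATM peak. That is 1.84% (95% Wilson interval 1.70 to 1.99), against 3.62% for γ-H2AX and 1.47% for HMGA2. CCAAT was present in 41.9% of the ATM-touched windows and in 37.3% of all windows. GGGCGG was present in 30.3% of the touched windows and in 36.0% of all, and TATAAA in 12.7% and 13.6%. The ATM-touched windows thus held the GC box somewhat less often and the CCAAT box somewhat more often than promoters at large, without a test of either difference. The higher CCAAT share was not particular to ATM, with 42.7% in windows touched by γ-H2AX and 39.2% in those touched by HMGA2. GGGCGG stood at 37.5% and 16.2% in the same windows. Median GC content was 50.3% in ATM-touched windows and 53.0% in all, and its part in the motif shares was not tested.

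ATM peaks were narrow and most had low scores. The score is the authors' own value, minus 10 times the log10 of the peak caller's p, and the list starts at 20, which is p = 0.01. The median score was 23.6, and 89.8% of peaks scored under 30. Only 437 peaks reached 50 and 20 reached 100. The median width was 167 bp, with the middle part of the list between 153 and 181 bp, and the peaks together covered 19.3 Mb, or 0.802% of the autosomal span of 2403 Mb. The reference lists had much the same shape, with median widths of 168 bp for γ-H2AX and 169 bp for HMGA2 and a median score of 23.6 and 23.8.

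A peak of one list seldom lay on a peak of another. At 1 bp of overlap or more, 3185 ATM peaks (2.84%, interval 2.75 to 2.94) met a γ-H2AX peak and 3459 (3.09%, 2.99 to 3.19) an HMGA2 peak, and 169 met both. In all, 105641 ATM peaks (94.2%) overlapped neither list. The γ-H2AX peaks covered 0.859% of the autosomal span and the HMGA2 peaks 1.05%, and an overlap of 1 bp is met more easily than these shares. The overlap of unrelated lists of this size was not computed. The shares are therefore not read as lower or higher than that value, and do not show that the lists avoid each other. The overlap was larger among strong peaks. Of the 36406 ATM peaks scoring under 22, 5.39% (5.16 to 5.62) overlapped either list, and of the 437 peaks scoring at least 50 it was 22.7% (19.0 to 26.8). Gene content changed little over the same range: 49.99% of the weakest class and 46.5% (41.8 to 51.1) of the strongest lay in a gene.

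ATM peaks were spread over genes and intergenic DNA nearly as their own list was when slid along the chromosomes. For this reference each chromosome's peaks were rotated around its span in 100 even steps, which keeps the spacing and width of the peaks and breaks their link to genes. Gene bodies held 55759 ATM peaks, 49.7% of the list (interval 49.4 to 50.03), and the rotated lists held a mean of 49.5% (49.0 to 50.03 over the 100 rotations). Protein-coding genes alone held 41.2% against a rotated mean of 41.0%, and lncRNA genes 9.03% against 8.96%. Intergenic DNA over 1 kb from any gene held 47.9% against 48.0%. All 4 of these values lay inside the range of the rotations. The γ-H2AX list differed more from its rotations, with 55.2% in gene bodies against 49.5%, and HMGA2 peaks stood at 48.8% against 49.4%.

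Gene ends were the place where ATM peaks were scarcer than their rotations. Within 1 kb of either annotated end of a gene lay 7171 ATM peaks, 6.40% of the list (6.25 to 6.54), against a rotated mean of 6.82% (6.55 to 7.02), and all 100 rotations were higher. The ratio of observed to rotated share was 0.938 (0.917 to 0.959). Start sites and 3′ ends shared in it: 2.31% against 2.47% within 1 kb of a start site, a ratio of 0.934 (0.899 to 0.971), and 2.14% against 2.32% within 1 kb of a 3′ end, a ratio of 0.923 (0.887 to 0.961). Shifting the list by only 50 to 100 kb in place of rotating it, which keeps each peak in its own neighbourhood, brought the gene end ratio to 0.954 (0.933 to 0.975). Among the 11405 peaks scoring at least 30 it was 0.949, with an interval from 0.886 to 1.02. Under the local shifts the start site share of 2.31% lay inside the shifted range (2.29 to 2.46), with a ratio of 0.968, and the 3′ end share of 2.14% just below its range (2.15 to 2.34). Within 250 bp of a start site the share of 0.683% was below the shifted range (0.7325 to 0.849), with a ratio of 0.877. Against rotations the gene end ratio was 1.17 (1.14 to 1.19) for γ-H2AX and 0.833 (0.815 to 0.850) for HMGA2. Against local shifts it was 1.12 for γ-H2AX and 0.956 for HMGA2.

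**Figure D1:**
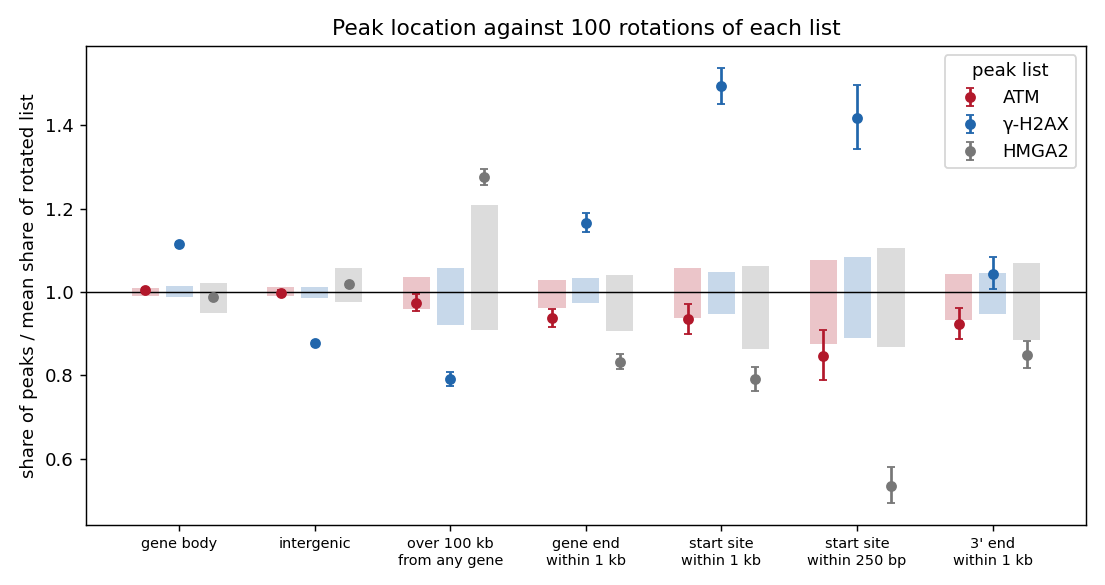
Share of peaks at each place divided by the mean share of the same list over 100 rotations, for ATM, γ-H2AX and HMGA2. Points carry 95% Wilson intervals and shaded boxes span the lowest to the highest rotation. ATM points lie at 1.00 for gene bodies and intergenic DNA and below their boxes at gene ends (0.938) and within 250 bp of start sites (0.847).

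Among the positions profiled, the scarcity was deepest just after the start site. Midpoints were counted in 500-bp bins around 31365 annotated start sites, again for every start site in reach. A peak near several start sites therefore counted more than once, and the intervals, which ignore this, are too narrow. The first bin downstream held 570 ATM counts, 0.780 times the autosome mean (0.716 to 0.844). The bin directly upstream held 665, or 0.910 times the mean (0.841 to 0.980). From 500 bp to 2.5 kb downstream the bins lay between 0.972 and 1.04, and from 500 bp to 1.5 kb upstream at 1.03 and 1.06. Farther out the values were again lower, at 0.886 (0.818 to 0.954) from 5 to 4.5 kb upstream and 0.913 (0.844 to 0.982) from 4.5 to 5 kb downstream. All 3 lists were lower in the first downstream bin than in the bins beside it. HMGA2 stood there at 0.468 times its own mean, between 0.710 and 0.819, and γ-H2AX at 1.35, between 1.68 and 1.66. Around 3′ ends the ATM bins ran between 0.835 and 0.990 over the whole 5 kb on both sides, with no bin that stood out at the end itself (0.922 just before it and 0.892 just after it).

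**Figure D2:**
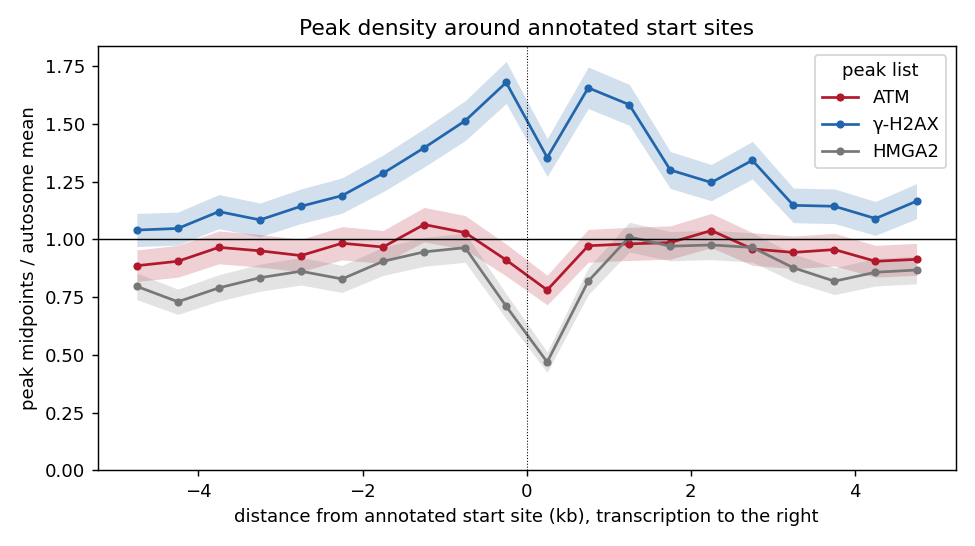
Peak midpoints per 500-bp bin around annotated start sites, relative to the mean density of each list, with shaded 95% counting intervals. A midpoint counts for every start site in reach, which the intervals ignore. The ATM line dips to 0.780 in the first bin downstream, the HMGA2 line to 0.468 and the γ-H2AX line from 1.68 to 1.35.

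Base composition moved with the promoter values. Promoter windows were split into 5 classes of GC content. In the lowest class, up to 44.3% GC, ATM peaks touched 2.46% of windows (2.12 to 2.87). The share was 2.02%, 2.08% and 1.72% in the next classes and 0.872% (0.667 to 1.14) in the highest, at 64.7% GC or more. The order for γ-H2AX was different, with 3.37% in the lowest, 4.85% in the fourth and 2.34% in the highest class, and HMGA2 fell from 3.28% to 0.280%. The part of GC content in the values at start sites was not tested.

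Of 20665 autosomal protein-coding genes, 3406 (16.5%, 16.0 to 17.0) had an ATM peak within 1 kb of an end, and 320 had 2 or more. The highest-scoring of these lay at Mreg, which encodes melanoregulin, an organelle transport protein: a peak of 84 bp with a score of 65.9 inside the gene, 850 bp from its 5′ end (chr1:72211422-72211505). Lbr, the lamin B receptor gene, had a peak of 104 bp scoring 59.0 centred 954 bp outside its 5′ end. Serpinb9d, a protease inhibitor gene, carried one of 78 bp with the same score near its 3′ end. Scores of such narrow peaks are often tied: of the 1381 ATM peaks under 110 bp, 631 scored 36.5. Their rank by score is therefore a weak guide to the strongest sites. Mrpl17, for a protein of the mitochondrial ribosome, had a peak centred 84 bp beyond its 3′ end scoring 57.9. Cfap36, a cilia-associated gene, had 3 peaks at its ends, the best scoring 55.1. Vmn2r129, a vomeronasal receptor gene, was the only one of the top 10 whose peak also overlapped a γ-H2AX peak. None of the 10 overlapped an HMGA2 peak. The best peak of a gene lay at its 5′ end in 1379 genes and at its 3′ end in 1273. A further 76 genes had it within reach of both ends, and for 678 the strand was not known.

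A separate deposited list of ATM promoter regions has 840 autosomal entries. Of these, 763 have the coordinates of a peak in the list described here, once starts are counted from 1, and 77 do not. On the autosomes with start sites, 647 of 819 entries (79.0%) were centred within 1 kb of a RefSeq start site, while 2491 ATM peaks of the full list touched such a window. How the authors chose the entries is not given in the sources used here.

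Neighbouring ATM peaks were slightly closer than evenly scattered points would be. The median distance between neighbouring midpoints was 14231 bp, and 14844 bp is the value for midpoints scattered evenly at the density of each chromosome. Distances of 300 to 500 bp occurred 1.18 times as often as under even scatter (1.12 to 1.25), those of 500 bp to 1 kb 1.12 times (1.07 to 1.16), and those of 5 to 10 kb 1.03 times (1.01 to 1.04). Distances up to 300 bp were rarer, at 0.579 times (0.541 to 0.617). No ATM peak overlapped another ATM peak, so midpoints cannot lie closer than about a peak's width. For γ-H2AX and HMGA2 the excess at 300 to 500 bp was 1.57 and 1.71 times. Long empty stretches were also more common than under even scatter: 1339 distances fell between 100 and 200 kb, 1.27 times the even value, and 57 were longer than that, where about 10.4 would be even. The longest distance between neighbours was 774527 bp. Among peaks scoring at least 30, 83 distances were within 1 kb, 1.535 times the even value, while over the whole list the share within 1 kb was 0.966 times it.

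**Figure D3:**
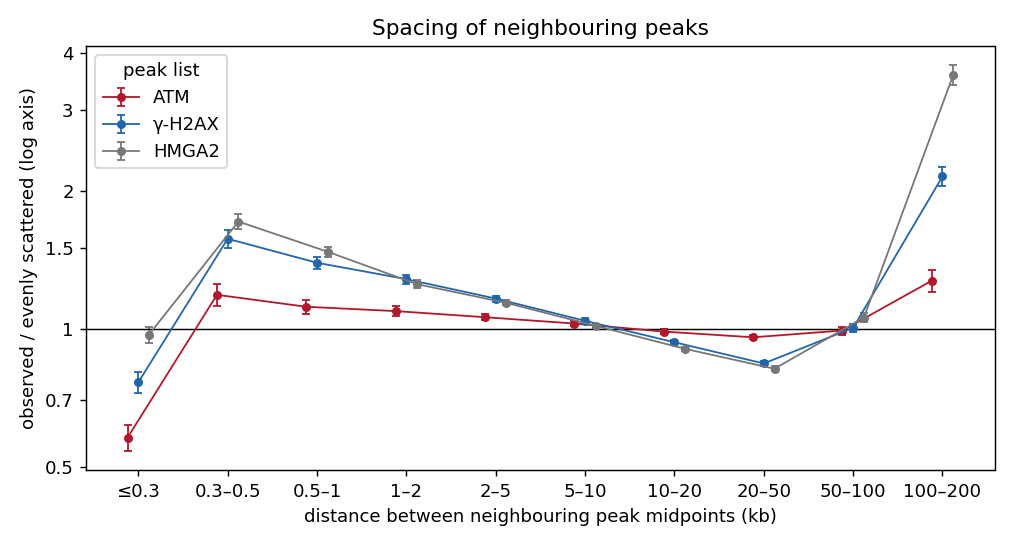
Number of distances between neighbouring peak midpoints in each class, divided by the number for evenly scattered midpoints, on a log axis with 95% counting intervals. ATM is at 0.579 up to 300 bp, 1.18 at 300 to 500 bp and 1.27 at 100 to 200 kb, where γ-H2AX reaches 2.15 and HMGA2 3.57.

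Short runs of ATM peaks did occur. A run was counted where each neighbour lay within 2 kb. There were 982 runs of 3 or more peaks, 1.21 times the even value of 813, and 16 runs of 5 or more, where 6.51 would be even. The lists of γ-H2AX and HMGA2 held 59 and 126 runs of 5 or more, against even values of 8.83 and 21.7. Both of the longest ATM runs had 7 peaks. One covered 4.65 kb inside Usp17le, a member of the Dub family of deubiquitinases on chromosome 7, where γ-H2AX and HMGA2 had 1 peak each. The other covered 8.40 kb over Gm7592, Gm2666 and Gm2427 on chromosome 1, with no γ-H2AX peak and 1 HMGA2 peak. A run of 6 lay over Fcgr3, an Fc receptor gene, and the transfer RNA genes next to it on chromosome 1. There γ-H2AX had 5 peaks and HMGA2 1. A run of 6 in Dzip3, an RNA-binding ubiquitin ligase gene, came with no γ-H2AX and 1 HMGA2 peak. These runs were chosen for their length after the values were seen.

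Across the autosomes ATM peaks had the smallest spread of counts in 1-Mb windows among the 3 full lists. Over 2374 windows the median was 47 ATM peaks, 90% of windows lay between 30 and 64, and the range was 4 to 141. The standard deviation was 11.2, where counting alone would give 6.83. The spread beyond counting error was 19.0% of the mean for ATM, 32.8% for γ-H2AX and 38.7% for HMGA2. For ATM peaks scoring at least 30 it was 31.4%, and the reference lists were not run at that limit. Whole chromosomes ran from 43.2 ATM peaks per Mb on chromosome 7 to 49.8 on chromosome 3. Those 2 chromosomes were also the lowest and highest for γ-H2AX (43.2 and 54.9) and HMGA2 (45.4 and 71.0).

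**Figure D4:**
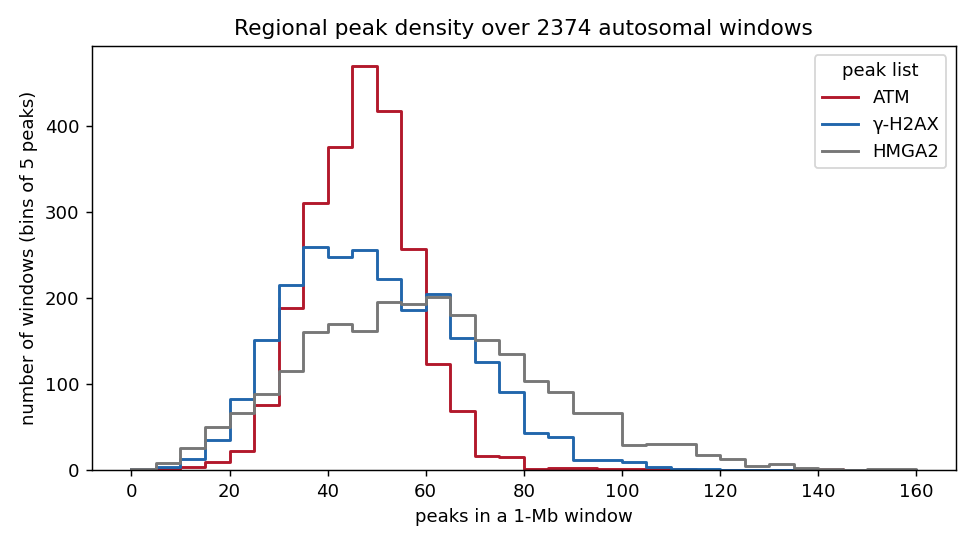
Number of autosomal 1-Mb windows (vertical axis) by peaks per window (horizontal axis, bins of 5) for the 3 lists. The ATM windows are gathered around their median of 47 with a standard deviation of 11.2, and the γ-H2AX and HMGA2 windows are broader, with standard deviations of 17.8 and 24.3.

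Windows rich in ATM peaks tended to be rich in the other lists too. Pearson's r over the 2374 windows was 0.541 between ATM and γ-H2AX and 0.484 between ATM and HMGA2, while γ-H2AX and HMGA2 correlated at 0.332. Neighbouring windows are not independent (r = 0.403 between adjacent windows for ATM), and all lists share the regions where reads can be placed, so these are descriptions. The r between the ATM count and the number of protein-coding genes in a window was -0.128, against 0.062 for γ-H2AX and -0.387 for HMGA2. In the 1666 windows with at least 5 promoter sequences held, the r of ATM with median promoter GC content was -0.162. The share of a window inside genes correlated at -0.0030 with ATM, 0.258 with γ-H2AX and -0.315 with HMGA2. Windows with no protein-coding gene held a median of 44 ATM peaks, those with 5 to 10 genes 49, and those with more than 20 genes 42. For HMGA2 the same medians were 79, 57 and 40.

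The densest windows lay over clusters of repeated gene families. The 3 top windows adjoin on chromosome 5 between 93 and 96 Mb, with 112, 141 and 114 ATM peaks, and hold Pramel genes, a germline-expressed family, together with many unnamed Gm genes. In the middle window γ-H2AX and HMGA2 had 87 peaks each. The fourth, on chromosome 1 from 85 to 86 Mb, had 105 ATM peaks, with 42 for γ-H2AX and 39 for HMGA2, and contains Sp110, Sp140 and Sp100, genes for nuclear body proteins. Next came chromosome 4 from 147 to 148 Mb, a zinc finger cluster with 104 ATM peaks, 69 γ-H2AX peaks and 112 HMGA2 peaks. The sparsest windows were also clusters in part. Chromosome 2 from 176 to 177 Mb, over Zfp967, Zfp973 and Gm genes, had 4 ATM peaks, 1 γ-H2AX peak and 6 HMGA2 peaks, and the window before it had 7, 8 and 11. Windows at Tafa5 on chromosome 15 (87 to 88 Mb) and at Ajap1 on chromosome 4 (153 to 154 Mb) had 13 ATM peaks each, and the one over the Ccl21a and Ccl19 chemokine cluster (chromosome 4, 42 to 43 Mb) had 14. In all 5 sparse windows each reference list was below its own median too. Repeat content and read mappability were not measured here, and their part in these counts was not tested.

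Wide peaks were rare and gathered at a few loci. Only 169 ATM peaks were over 500 bp and 31 over 1 kb, and 16 of those 31 overlapped no peak of the other lists. Over the whole ATM list 94.2% overlapped none, so overlap was more common among the wide peaks. A wide peak also has more bases that can meet another peak. The γ-H2AX and HMGA2 lists had 11 and 15 peaks over 1 kb. The widest ATM peak, 6567 bp with a score of 87.0, lay in Sfi1, which encodes a centrosomal protein, at chr11:3184232-3190798. With 3 others over 1 kb there and in the neighbouring pseudogene Pisd-ps1, ATM peaks covered 18.5 of 63.9 kb, and both reference lists had no peak in that stretch. A single peak of 5848 bp scoring 107.9 (chr17:39842991-39848838) covered Rn18s-rs5, an 18S ribosomal RNA related sequence, and the start of the lncRNA gene AY036118, again with no reference peak. Around Sp110 and Sp140 on chromosome 1, 67 ATM peaks covered 39.4 of 547 kb, 7 of them over 1 kb. The 27 γ-H2AX peaks there covered 9.42 kb and the 17 HMGA2 peaks 8.53 kb. At Duxf3, a double homeobox gene on chromosome 10, 2 of 3 ATM peaks were over 1 kb, with 1 γ-H2AX peak and no HMGA2 peak in the same 5.19 kb. These loci were chosen for their peak width after the values were seen. Whether the same stretches are enriched in an input library was not tested.

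The very highest scores belonged to positions that another list also marked, while of the 437 peaks scoring at least 50 this held for 22.7%. The top peak, 4100 bp with a score of 494.0 at chr14:19415616-19419715, overlapped peaks of both other lists and lay 10524 bp from the nearest gene, the pseudogene Gm9637. In the γ-H2AX and HMGA2 lists the peaks there scored 670.5 and 641.3. Whether an input library is also enriched at such shared positions was not tested. The second, scoring 409.2 in the lncRNA gene Gm40237 on chromosome 4, overlapped a γ-H2AX peak. All of the 10 top-scoring ATM peaks overlapped a peak of another list, and the only protein-coding gene nearest to any of them was Dpp10, a modulator of potassium channels, at 13152 bp. Several were very narrow, such as the peak of 78 bp scoring 178.3 on chromosome 6 near the pseudogene Gm18100. Among all 1381 ATM peaks under 110 bp, 631 had the same score of 36.5, and the 2 reference lists had the same median of 36.5 for such peaks.

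Of the protein-coding genes, 10877 had at least 1 ATM peak in the gene body, 6784 at least 2, 2751 at least 5 and 1107 at least 10. Genes with 1 or more were fewer than in any rotation (mean 11250, range 10972 to 11450), and those with 5 or more were more numerous than in any (mean 2640, range 2579 to 2722). The same held for 10 or more, where the rotations gave 1016 on average (973 to 1078). At 20 or more peaks the count of 334 genes was within the rotations (292 to 360), as were the 49 genes with 50 or more (39 to 59). Among peaks scoring at least 30 the genes with 5 or more numbered 84, or 0.836 times the rotations (0.676 to 1.03), so the excess was not seen there. Density by gene length ran in parallel. Genes up to 10 kb had 4.06 ATM midpoints per 100 kb (3.83 to 4.28) and those of 10 to 30 kb 4.21 (4.09 to 4.33). Those of 100 to 200 kb had 4.87 (4.77 to 4.97) and those over 500 kb 4.605 (4.51 to 4.70), where the autosome mean is 4.67. In genes up to 10 kb, of 100 to 200 kb and over 500 kb, γ-H2AX had 5.59, 6.11 and 4.51 per 100 kb. HMGA2 had 3.65, 6.29 and 6.61 in the same classes.

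The 10 genes with the most ATM peaks were among the longest, many of them neuronal. Dlg2, which encodes a scaffold of the postsynaptic density, led with 128 peaks over 1973 kb, with 87 γ-H2AX and 148 HMGA2 peaks in the same gene. It was followed by Ptprd, a receptor tyrosine phosphatase gene with 114 peaks, by Macrod2, an ADP-ribose hydrolase gene with 111, and by Cntnap2, a neurexin family gene with 105. Pde4d, a cAMP phosphodiesterase gene, had 90 and Fhit, a tumour suppressor at a common fragile site, 87. Lsamp, a neuronal adhesion gene, had 85. Lrp1b, of the LDL receptor family, and Robo2, a receptor for Slit guidance cues, had 81 each, and the scaffold gene Magi2 had 75. Of these 10 counts, 9 lay within their rotations. Rotated lists placed a mean of 104 peaks in Cntnap2 (73 to 138) and 103 in Ptprd (44 to 220). Pde4d stood just above its rotations, 90 against a mean of 64.0 and a highest of 89, and also held 116 γ-H2AX and 118 HMGA2 peaks. Dlg2 lay within its rotations, 128 against 85.2 with a highest of 149. The 10 genes were picked for their ATM counts, so these values are a description. Lsamp, with 3.87 peaks per 100 kb, and Lrp1b, with 3.94, had fewer than the autosome mean, while HMGA2 had 6.78 and 7.68 per 100 kb in them.

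**Figure D5:**
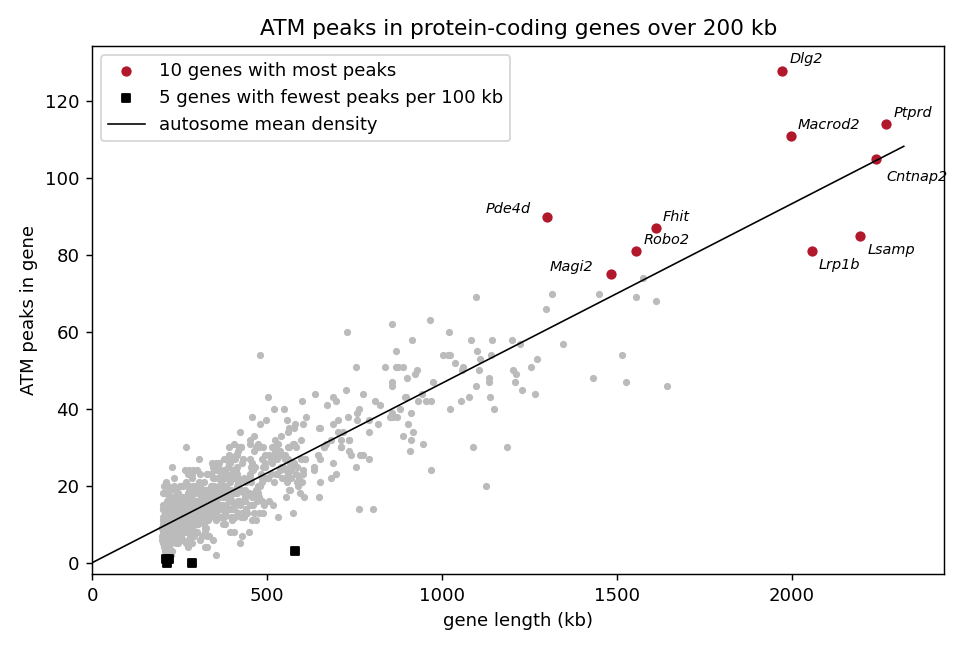
ATM peaks (vertical axis) against gene length in kb (horizontal axis) for the 945 protein-coding genes over 200 kb, with the line of the autosome mean of 4.67 peaks per 100 kb. Dlg2 (128) and Pde4d (90) lie above the line, Lsamp (85) and Lrp1b (81) below it, and the 5 sparsest genes have 0 to 3 peaks.

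Among the 945 genes over 200 kb the density was fairly even, with a median of 4.74 ATM peaks per 100 kb and 90% of genes between 2.47 and 7.32. The same range was 1.68 to 10.8 for γ-H2AX and 1.39 to 12.5 for HMGA2. Gm4724, in the sparse zinc finger cluster on chromosome 2, had no peak of any list in 286 kb. Tafa5, a gene for a secreted chemokine-like protein, had no ATM peak in 215 kb, where its rotations gave 2 to 22, with 3 γ-H2AX peaks and no HMGA2 peak. Tmtc1, an endoplasmic reticulum mannosyltransferase gene, had 1 ATM peak in 212 kb against 4 to 20 in the rotations. Its γ-H2AX and HMGA2 counts were 8 and 13. Csmd2, a large complement-domain gene, had 3 ATM, 6 γ-H2AX and 7 HMGA2 peaks in 581 kb. Gm40847 had 1 peak of each list.

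The densest genes with at least 5 peaks were short. Usp17le had 7 ATM peaks in 9.51 kb, or 73.6 per 100 kb, with scores from 21.9 to 41.8, and none in the flanks of the same length on both sides. Psmg2, a proteasome assembly chaperone gene on chromosome 18, had 5 in 12.6 kb, 39.7 per 100 kb, scoring 20.7 to 27.0, also with none in its flanks. Ppil2, for a cyclophilin-type ubiquitin ligase, had 9 in 24.7 kb. Of these, 4 lay between 23.3 and 24.4 kb along the gene interval, and they scored up to 44.5. γ-H2AX and HMGA2 had 1 peak each in Usp17le and Psmg2, and 2 and 1 in Ppil2. Tcp10c, a t-complex gene on chromosome 17, had 8 ATM peaks and 1 of each reference, and Gm2427, next to Sp110, had 7 with 1 of each. The other 5 of the 10 densest genes held more reference peaks. Zfp990 had 9 ATM, 7 γ-H2AX and 9 HMGA2 peaks in 27.5 kb, and Zfp322a 5, 1 and 6. Gm9495 had 9, 2 and 6, Gm6468 11, 7 and 2, and Gm42346 10, 4 and 6. Across these genes the rotations had at most 3 peaks in Usp17le, 4 in Psmg2 and 5 in Ppil2. The genes were picked from 20665 for their density, so these values are a description.

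Gene families were also compared. They were chosen by symbol after the dense windows had been seen, and some of the Pramel and Zfp genes lie in those windows, which were not left out, so these values are a description. In 45 Pramel genes ATM had 62 peaks, 10.4 per 100 kb (7.79 to 12.9), where the rotations gave a mean of 27.3 and at most 59. In 388 zinc finger genes named Zfp it had 790, 5.99 per 100 kb (5.58 to 6.41), above the highest rotation of 695. Olfactory receptor genes, 1104 short genes, held 72 peaks, 3.39 per 100 kb (2.61 to 4.17), below the lowest rotation of 77. In 354 vomeronasal receptor genes the count of 158 was near the mean rotation of 167, and in 42 collagen genes the 238 peaks were near 232. Solute carrier, kinesin, ribosomal protein and protocadherin genes were also within their rotation ranges. Over olfactory receptors γ-H2AX stood at 2.40 per 100 kb and HMGA2 at 5.46, against 5.66 and 5.97 over all protein-coding genes. Over the Zfp genes the reference lists stood at 6.73 and 7.18. No rotations of the reference lists are given for these families. Near the 391 transfer RNA genes ATM had 43 peaks in or within 1 kb, inside its rotation range of 17 to 50, and γ-H2AX had 94 against at most 55.

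Genes of the ATM pathway carried peaks in 17 of 24 cases. Over all autosomal protein-coding genes, 56.4% had at least 1 ATM peak in the gene or within 1 kb. That share was 21.9% for genes up to 10 kb, 55.6% at 10 to 30 kb and 88.6% at 30 to 100 kb. The 24 genes for ATM and its partners and substrates have a median length of 30.4 kb, against 17.5 kb for all genes. Their median density was 3.94 peaks per 100 kb against 2.11 for all genes, and their pooled density 5.75 against 4.71. Genes without a peak, which are mostly short, count as 0 in these medians. The pooled value rests on 49 peaks and carries no interval. Among the kinase's activators, Mre11a had 5 peaks scoring up to 36.5, Rad50 2 scoring up to 35.4, and Nbn 1 scoring 33.7. A score of 36.5 was also the most common one among narrow ATM peaks. The ubiquitin ligase gene Rnf8 had 1 (35.0), and Brca1, for the repair scaffold, 4 (at most 29.6). Mdm2, which encodes the p53 ubiquitin ligase, had 5 ATM peaks in 21.9 kb, against at most 4 in the rotations, beside 4 γ-H2AX and 5 HMGA2 peaks. H2ax, Trp53, Mdc1, Kat5, Telo2, Trim28 and Rad17 had none. The Atm gene itself, named here after its value was seen, had 11 peaks in 99.7 kb, within its rotation range of 1 to 14, with 4 of γ-H2AX and 11 of HMGA2.

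Genes at common fragile sites, which break under replication stress and are mostly very long, all had ATM peaks: 22 of 22, with a median length of 1324 kb. Every protein-coding gene over 500 kb had at least 1, so that count carries no information on its own. Their pooled density was 4.66 ATM peaks per 100 kb, against 4.71 for all protein-coding genes, 4.18 for γ-H2AX and 6.38 for HMGA2 in the same genes. High-scoring peaks of the list lay in Cntnap2 (63.3), in Dlg2 (49.98), in Fhit (47.1) and in Macrod2 (47.0). Single genes ran from 1.78 per 100 kb in Dab1, a reelin signalling adaptor gene, to 6.91 in Pde4d. The 22 long adhesion and synaptic genes were alike, at 4.53 per 100 kb pooled. Their highest-scoring peaks lay in the catenin gene Ctnna2 (59.0), in the netrin-G ligand gene Lrrc4c (54.2), in the contactin gene Cntn4 (52.5), in the sarcoglycan gene Sgcz (51.1), in the neuregulin gene Nrg3 (49.7) and in the cadherin gene Cdh12 (45.9). The scores of 59.0 and 51.1 also recurred among narrow peaks at gene ends.

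Fibroblast and extracellular matrix genes carried ATM peaks in 17 of 20 cases, with a median length of 26.9 kb. The share of all protein-coding genes with a peak in the gene or within 1 kb was 56.4%, and it was 55.6% of those of 10 to 30 kb. Col5a1 had 8 peaks scoring up to 43.6, Col3a1 4 (38.7), and Col5a2 11 (35.4), all fibrillar collagen genes. The platelet-derived growth factor receptor gene Pdgfra had 3 (29.8), the smooth muscle gene Tagln 2 (29.8), and the fibronectin gene Fn1 4 in the gene and 1 beside it (29.6). The pooled density was 6.56 per 100 kb for ATM, 9.36 for γ-H2AX and 10.6 for HMGA2, each above its value over all protein-coding genes (4.71, 5.66 and 5.97). The ATM value rests on 47 peaks, 11 of them in Col5a2, and these densities carry no interval. Housekeeping genes, with a median length of 5.13 kb, had a peak in 8 of 18, where 21.9% of all genes up to 10 kb had one. Some are longer, such as Ywhaz (32.7 kb), Sdha (28.0 kb), Polr2a (24.6 kb) and Tfrc (23.9 kb), in classes with 55.6% or 88.6%. Gusb and Tbp, also over 10 kb, had no peak. Among the 8 genes with a peak were Ywhaz, Polr2a, Eef2, Tfrc, Rplp0, Tuba1b and Sdha, with 1 to 3 peaks each in the gene or within 1 kb. Genes typical of other cell types were at 6 of 15 for blood cells (Ptprc led with 9 peaks), 5 of 15 for epithelium (Trp63 led with 14) and 10 of 13 for endothelium (Tek and Erg led with 10 each). Their pooled ATM densities were 5.63, 4.63 and 4.69 per 100 kb. Their median lengths were 10.9, 7.63 and 46.3 kb, in classes where 55.6%, 21.9% and 88.6% of all genes had a peak. Each list mixes length classes, so the share of its median's class is not the share to be had for the list. The blood cell genes, for example, ran from 0.815 kb (Hba-a1) to 124.9 kb (Adgre1). The lists differ in gene length, and no test of a difference between them was made.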

How the data were processed

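MACS14 called the peaks of each library with its model turned off, with a 30-bp shift size and p up to 0.01, per the labels. The build is mm10, and Trimmomatic, Bowtie2, SAMtools and HOMER are also named, per the submitters' processing notes. Whether an input entered the call is not given in the sources used here. The deposited peak files give positions and a score per peak (lowest 20), the authors' own value. The deposited ATM promoter list gives only positions, an other kind of value with no score.

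Members and gene lists were chosen with earlier results of these data known. Genes and start sites came from RefSeq (GRCm38.p6, the same coordinates as mm10): 47042 autosomal genes, 20665 of them protein-coding, and 31365 start sites on 18 autosomes. Strand was known for 79.6% of protein-coding genes. A peak counted at a place with 1 bp of overlap. Shares carry 95% Wilson intervals and densities 95% Poisson intervals (normal approximation). The 100 rotations were even circular steps within each chromosome's peak span, and the 52 local shifts ran from 50 to 100 kb both ways. Spacing was set against the exponential distribution. Python 3.11.15, numpy 2.4.6 and pandas 2.3.3 were used, and interval counts were checked with bedtools 2.31.1 and tested on simulated data. Named genes were, by rule, the 10 with most peaks, the 10 densest with at least 5 peaks, the 10 with the highest-scoring peak at an end, the 5 sparsest over 200 kb, those nearest the 10 highest peaks, those of the 5 densest and 5 sparsest windows, and up to 6 per list by score. Alternatives were a score of at least 30, midpoints, protein-coding genes only, local shifts, other window sizes, and leaving out peaks shared with another list or the densest windows. Some items that the rule names are not reported here.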

Additional observations from a re-analysis of the deposited data

How the results depend on the processing

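The ratio of the gene end share to its rotations was 0.938, and it stayed below 1 in all 7 alternatives, from 0.914 with 500-bp windows to 0.965 with 5-kb windows. With a score of at least 30 it was 0.949, and the interval (0.886 to 1.02) then reached past 1. The gene body ratio of 1.00 and the intergenic ratio of 0.998 went to 0.989 and 1.01 at that score limit. The count of genes with at least 5 peaks went from 1.04 times the rotations to 0.836 (84 genes), with an interval (0.676 to 1.03) that includes 1. Without peaks shared with another list it was 1.03 (0.996 to 1.07). The spread of 1-Mb windows beyond counting error went from 19.0% to 31.4%. The share of neighbours within 1 kb turned, from 0.966 times even scatter to 1.535 (83 distances), and to 1.455 when the 25 densest windows were left out as well. The cause was not tested. That last alternative, and leaving the 25 windows out of the regional spread (16.6%), were chosen after seeing the data. Requiring 50% of an ATM peak lowered the overlap with either other list from 5.78% to 3.26%. No paired analysis was possible because each antibody and genotype has 1 library and the results come from no test. Read depth was not analysed here, so weak peaks could not be weighed against it, and 89.8% of the list scored under 30.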
